A study of Homo sapiens with 4 samples.

Results

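Messenger RNAs for the proteins of the mitochondrial ribosome were followed after exposure of A375 cells, a human melanoma cell line, to a medium-chain fatty acid. The genes were those whose symbol starts with MRPL or MRPS followed by a number and at most 1 letter from A to C. Of 77 matching symbols among 56832 genes listed, 76 were kept because their normalised count, averaged over the 4 libraries, reached 100. By symbol, 48 of them belong to the large subunit (MRPL) and 28 to the small subunit (MRPS). Wild-type A375 cells in DMEM with serum received 1 mM octanoate for 48 h, or only its solvent isopropanol for the same time, with 2 libraries per group. The stated purpose was to find genes and gene signatures that rise under the treatment. Nothing in the labels says whether the libraries of a group came from separate cultures, so p-values refer to these libraries only. In the limma fit used below, the variance of each gene also drew on that of genes at a similar level.

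Mitochondria carry their own ribosome, which translates the few mRNAs of the mitochondrial genome into membrane subunits of the respiratory chain and the ATP synthase. Its rRNAs are transcribed inside the mitochondrion, whereas all of its proteins are encoded in the nucleus, made in the cytosol and imported. The small subunit reads the mRNA, and the large subunit joins amino acids and holds the exit tunnel through which the new protein leaves toward the inner membrane.

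The libraries held between 67785956 and 78005035 reads assigned to genes. Of 8 melanocyte lineage markers, 4 had a mean normalised count of at least 100 (SOX10, MITF, S100B and S100A1), and PMEL, MLANA, TYR and DCT were below it in every library. SOX10 was counted at 41363 and 37790 in vehicle and 39112 and 34072 in octanoate, with overlap. MITF (3533 and 3330, then 2414 and 2511) and S100B (4234 and 3741, then 1917 and 1746) were lower with octanoate. S100A1 (127 and 153, then 165 and 167) and PMEL (65.8 and 65.9, then 98.2 and 95.4) were higher. Of 4 dedifferentiated melanoma markers, AXL (23437 and 22061, then 30450 and 30298) and EGFR (1105 and 1063, then 1258 and 1297) were higher with octanoate. NGFR (11444 and 10653, then 7401 and 6899) was lower, and SOX9 was below 100 in every library. The summed count of keratinocyte markers was 949 and 1123 in vehicle and 221 and 269 in octanoate, nearly all of it KRT14, while the other defining keratinocyte marker, KRT5, was at most 12.8. Haematopoietic markers summed to at most 12.8 and epithelial markers to at most 44.4. Endothelial markers summed to 141 and 137 in vehicle and 258 and 243 in octanoate, mostly PECAM1. Their part in the results below was not tested.

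As a group, the mitoribosomal protein mRNAs were nearly level between octanoate and vehicle. The log2 difference, octanoate minus vehicle on the scale of log2(normalised count + 1), had a median of -0.004 over the 76 genes, and the middle 50% of them lay between -0.08 and 0.05. Of these genes, 7 rose and 4 fell at an adjusted p under 0.05 (limma, Benjamini-Hochberg over the 20250 genes averaging 10 or more), which is 11 of 76 or 14.5%. Over all genes tested 29.9% were called, 16.2% higher and 13.7% lower, and for genes whose mean reached 1000 the share was 38.1%. With the same minimum, 69 mitoribosomal genes remained and 11 (15.9%) of them were called. The median absolute log2 difference was 0.07 for the mitoribosomal genes and 0.19 for all genes tested. Among genes whose mean reached 1000, it was 0.066 for the mitoribosomal genes and 0.126 for all.

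The bounds on these differences come from the limma fit with an intensity trend. In that fit the 95% intervals of all 76 log2 differences lay within 0.5 on either side of 0. Of these intervals, 61 included 0. The authors' deposited table mostly gives larger SE, for example 0.27 against 0.16 by limma for MRPL38. For MRPL53 it gives 0.22 against 0.14, and for MRPS10 0.07 against 0.06. An exception is MRPL3, with 0.0572 against 0.0574 by limma. Intervals from the clearly larger SE would be wider, so the bound of 0.5 is stated for the limma fit only. The groups did not overlap for 30 of the 76 genes (39.5%), with octanoate above vehicle for 13 and below it for 17. Over all genes tested the groups did not overlap for 63.1%, with octanoate above for 32.6% and below for 30.5%. In these bulk libraries a change in the number of cells and a change in RNA per cell cannot be told apart, and counts are relative to the rest of each library.

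**Figure D1:**
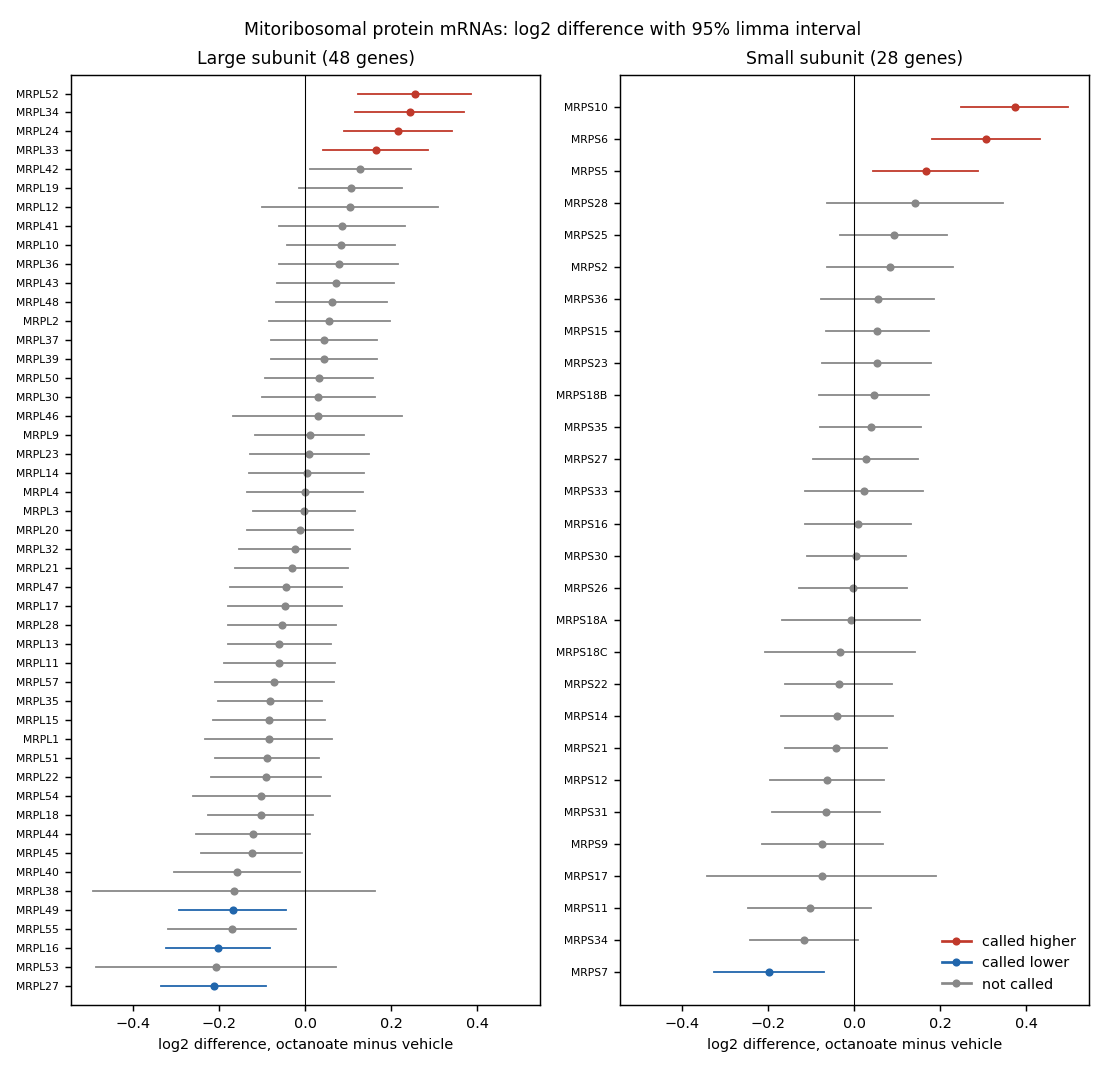
Log2 difference (octanoate minus vehicle, x axis) of each of the 76 mitoribosomal protein genes, ordered within the large subunit (left) and the small subunit (right). Points are limma estimates from 2 libraries per group and lines are 95% intervals; the estimates run from -0.21 (MRPL27) to 0.37 (MRPS10), with the 7 genes called higher in red and the 4 called lower in blue.

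Both subunits had a median near 0. The large subunit had a median log2 difference of -0.02, with 4 genes called higher, 3 called lower and 41 not called. The small subunit had a median of 0.01, with 3 genes called higher, 1 called lower and 24 not called. The shares called were 14.6% for the large and 14.3% for the small subunit, against 29.9% of all genes tested. The difference between the 2 medians, large minus small, was -0.03, against a replicate SD of 0.02 for that quantity. MRPS18A and MRPS30 are small subunit genes by name only, since their proteins sit in the large subunit, and MRPS36 is known as part of the oxoglutarate dehydrogenase complex. With these 3 reassigned, the medians differed by -0.02.

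Summed over the large subunit genes, the normalised count was 238168 and 228609 with vehicle and 241108 and 223198 with octanoate. For the small subunit genes the sums were 136445 and 129200 in vehicle and 137836 and 130699 in octanoate. The octanoate values spanned those of vehicle for the large subunit and overlapped them for the small one, and libraries of a group differed by more than the group means did. The ratio of the large to the small sum was 1.75 and 1.77 in vehicle and 1.75 and 1.71 in octanoate, again with overlap. Of each library's reads, 0.482% to 0.505% fell to the 76 genes together.

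**Figure D2:**
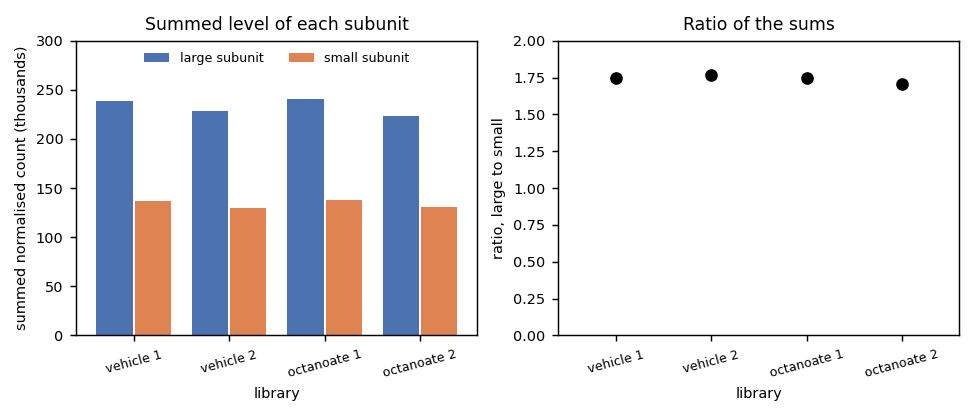
Left, summed normalised count (y axis, in units of 1000) of the 48 large and 28 small subunit genes in each library; right, the ratio of the sums. Bars and points are single libraries; the ratio lies between 1.71 and 1.77 in all 4.

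The largest rise in the set was that of MRPS10, a protein of the small subunit's head with a counterpart in bacteria (ENSG00000048544.5, GRCh38 chromosome 6, 42206801 to 42217865, minus strand). Its normalised count was 3579 and 3409 in vehicle and 4443 and 4609 in octanoate, so that every octanoate library lay above every vehicle library. Group means were 3494 ± 120 and 4526 ± 117 (SD, n = 2 each), and limma put the log2 difference at 0.37 with an SE of 0.06 (adjusted p 3.63e-05). MRPS10 remained called under all alternatives tried except a variance prior without an intensity trend (limma adjusted p 0.0633). GENCODE 29 lists 5 other genes with stretches of at least 95% identity to it, the longest 350 bases at 97.7% with AL138752.1, so part of its count is uncertain.

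MRPS6, another small subunit protein with a bacterial counterpart, was the other gene of the set with a log2 difference above 0.3. It was counted at 3491 and 3259 in vehicle and 4227 and 4120 in octanoate, without overlap. The log2 difference by limma was 0.31 with an SE of 0.06 (adjusted p 0.000432), and this call too was lost only without the intensity trend (limma adjusted p 0.0896). In GENCODE 29 the gene shares 273 exon bases with SLC5A3, a myo-inositol transporter gene, and 9.61% of its exon bases overlap another gene on the same strand. SLC5A3 was counted at 19685 and 20175 in vehicle and 19487 and 24539 in octanoate, with overlap and no call (limma adjusted p 0.184). How reads of the shared bases were assigned was not tested.

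The third small subunit gene that rose, MRPS5, whose protein lies near the mRNA entry, changed less. Its counts were 3844 and 3756 in vehicle and 4326 and 4204 in octanoate (limma: log2 difference 0.17, SE 0.06, adjusted p 0.0361). This call was lost when any 1 of the 4 libraries was left out, with limma adjusted p from 0.0852 to 0.200, and also with DESeq2 (adjusted p 0.0503). Of its exon bases, 8.19% overlap another gene on the same strand, ZNF514. That gene was counted at 613 and 663 in vehicle and 786 and 875 in octanoate. MRPS7, a head protein, was the small subunit gene that fell, from 5924 and 5487 to 5175 and 4774 (limma: log2 difference -0.20, SE 0.06, adjusted p 0.0174). Its call was lost without vehicle 1 or octanoate 2 (limma adjusted p 0.193 and 0.222). Of the exon bases of MRPS7, 10.8% overlap genes on the opposite strand, 213 bases of them with GGA3. GGA3 was counted at 3708 and 3673 in vehicle and 3391 and 3470 in octanoate. The part of reads from ZNF514 and GGA3 in the differences of MRPS5 and MRPS7 was not tested. All 4 small subunit genes called have bacterial counterparts. Of the 15 genes listed with one, 4 were called by limma, against 0 of 12 others. In limma, 0 of these 12 had an unadjusted p under 0.05. The 12 leave out MRPS36 and are not all without a bacterial counterpart. They hold MRPS30 as well as MRPS18A and MRPS18B, which are paralogs of the listed MRPS18C. The 4 of 15 (26.7%) were close to the 29.9% of all genes tested. The difference between these shares was not tested.

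In the large subunit, MRPL52, a protein found only in the mitochondrial ribosome, rose most. It was counted at 2260 and 2197 in vehicle and 2715 and 2603 in octanoate (limma: log2 difference 0.25, SE 0.06, adjusted p 0.00360). MRPL34, which has a bacterial counterpart, was at 4764 and 4500 in vehicle and 5723 and 5251 in octanoate. The log2 difference by limma was 0.24 with an SE of 0.06 (adjusted p 0.00387), and 13.2% of its exon bases overlap ABHD8 on the opposite strand. ABHD8 was counted at 1353 and 1269 in vehicle and 1450 and 1363 in octanoate, and its part was not tested. For MRPL52 and MRPL34 the 2 vehicle libraries were below both octanoate libraries.

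MRPL24, at the rim of the exit tunnel, and MRPL33, which has a bacterial counterpart, were the other large subunit genes that rose. MRPL24 went from 7669 and 7427 to 9254 and 8295 (log2 difference 0.22, SE 0.06, limma adjusted p 0.00893). MRPL33 went from 5362 and 5209 to 6136 and 5719 (log2 difference 0.16, SE 0.06, limma adjusted p 0.0382). For MRPL24 the octanoate libraries lay further apart than the vehicle libraries. Without vehicle 2 or octanoate 1 the calls of MRPL34 (limma adjusted p 0.0604 and 0.0894) and MRPL24 (0.0732 and 0.220) were lost. That of MRPL33 was lost without vehicle 1, vehicle 2 or octanoate 1 (limma adjusted p from 0.0793 to 0.333). MRPL33 shares 21.1% of its exon bases with BABAM2 on the same strand.

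Among the large subunit genes that fell, MRPL27 encodes the protein that reaches toward the site of peptide bond formation (ENSG00000108826.15, chromosome 17, 50367857 to 50373214, minus strand). It was counted at 4765 and 4556 in vehicle and 3976 and 4062 in octanoate, without overlap (limma: log2 difference -0.21, SE 0.06, adjusted p 0.00789). MRPL16, which lines the tRNA sites, went from 6412 and 6056 to 5555 and 5277 (log2 difference -0.20, SE 0.06, limma adjusted p 0.0111). MRPL49, without a bacterial counterpart, went from 6456 and 6094 to 5821 and 5346 (log2 difference -0.17, SE 0.06, limma adjusted p 0.0379). None of these 3 falls was called without vehicle 1, which held the higher count of the vehicle pair for each of them (limma adjusted p 0.0866 for MRPL27, 0.122 for MRPL16 and 0.248 for MRPL49). MRPL27 was also not called without octanoate 1 (0.0605), nor MRPL16 and MRPL49 without octanoate 2 (0.130 and 0.375). MRPL49 also lost its call with TMM factors, edgeR and DESeq2 (adjusted p 0.0699, 0.0672 and 0.0517). Of its exon bases, 12.2% overlap genes on the opposite strand, 356 bases of them with SYVN1. SYVN1 was counted at 3072 and 2969 in vehicle and 2820 and 2632 in octanoate, and its part was not tested. When every gene with a value above 0 entered the fit, MRPS10 and MRPS6 kept their calls and the other 9 genes lost theirs.

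**Figure D3:**
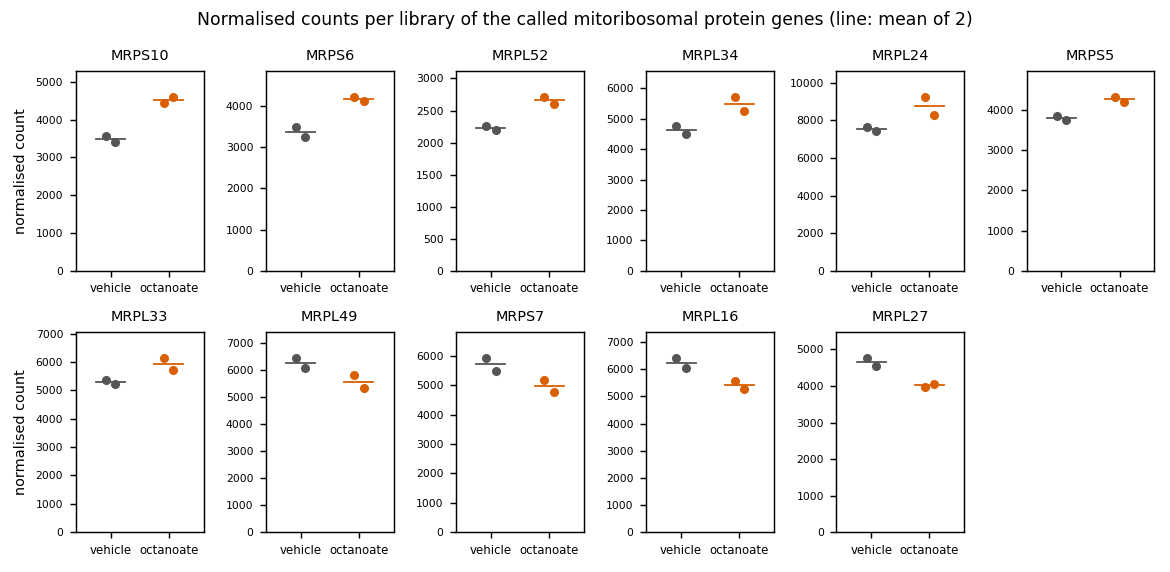
Normalised count (y axis, from 0) in each of the 4 libraries for the 11 mitoribosomal genes called, ordered from the largest rise (MRPS10) to the largest fall (MRPL27). Points are libraries and lines are the means of 2; in every panel the vehicle and octanoate points do not overlap.

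The authors' deposited table gave an adjusted p under 0.05 to 9 of the 76 genes, 6 higher and 3 lower. Over all 33533 genes of the authors' deposited table the share was 12.9%, with 6.89% higher and 6.01% lower. All 9 were among the 11 called by limma and had the same sign. The other two were MRPS5 and MRPL49, with adjusted p of 0.0508 and 0.0548 in the authors' deposited table. For MRPS10 the authors' deposited table gives a log2 fold change of 0.37 (adjusted p 8.97e-07).

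Grouped by place in the ribosome, the share of genes called was below the 29.9% of all genes tested in each group. In the stalk that recruits translation factors (MRPL10, MRPL11, MRPL12, MRPL53 and MRPL54), 0 of 5 genes were called, and 0 had an unadjusted limma p under 0.05. At the rim of the exit tunnel 1 of 8 was called, MRPL24, and the median log2 difference was -0.05. In the central protuberance, the crown of the large subunit, 1 of 6 was called, MRPL27, with a median of -0.13 and values from -0.21 to 0.06. The groups did not overlap for 5 of these 6 genes (83.3%, against 63.1% of all genes tested), with octanoate below vehicle for 4. The large subunit genes with bacterial counterparts had a median of -0.02 with 5 of 30 called, and those without had a median of -0.02 with 2 of 18 called.

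The 3 paralogs of the MRPS18 family take different places in the ribosome, and none of them was called. MRPS18A had a log2 difference of -0.01 (95% interval -0.17 to 0.15), MRPS18B one of 0.05 (-0.08 to 0.17) and MRPS18C one of -0.03 (-0.21 to 0.14). Each interval includes 0 and leaves room for small differences among the paralogs. MRPL3, the large subunit gene with the highest mean, was counted at 19025 and 19414 in vehicle and 19848 and 18509 in octanoate, with overlap. MRPS34, the highest of the small subunit, was at 10952 and 10355 in vehicle and 10352 and 9313 in octanoate, a log2 difference of -0.12 (limma adjusted p 0.157). The octanoate values of MRPS34 lay below those of vehicle by a margin too small to be called.

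Levels per length differed widely among genes whose proteins, apart from MRPL12, enter the ribosome as single copies. Divided by the length of all exons of the gene in GENCODE 29, the mean normalised count per kb was 1496 at the median of the 76 genes, with 50% of them between 906 and 2839. The medians of the subunits were close, at 1504 for the large and 1459 for the small subunit. The extremes were MRPS34 with 9337 per kb and MRPL38 with 34.4 per kb, a 272-fold range. The length of all exons can exceed that of a transcript. MRPS34 has 1097 exon bases against a median transcript length of 1040, and MRPL38 has 3663 against 1888. For MRPL46 the lengths are 6432 and 1019, and for MRPS18C 4866 and 666. The part of this in the range of levels was not tested.

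Several of the lowest levels per length were in genes whose exons overlap those of another gene on the same strand. MRPL38 (34.4 per kb), MRPS17 (119 per kb) and MRPL53 (134 per kb) share 37.5%, 27.0% and 45.2% of their exon bases with a gene on the same strand. MRPL46, the next to lowest at 71.9 per kb, shares 11.3% in this way, and MRPS18C at 180.0 per kb shares none on the same strand and 40.2% on the opposite strand. Of the 6 genes with over 20% of exon bases shared in this way, 5 were among the 10 lowest of the set, and their median was 229 per kb against 1558 per kb for the other genes. The exception was MRPL33 at 3643 per kb. Over the 76 genes, which share libraries and are not replicates, Spearman's rho between the share of overlapped exon bases on the same strand and the level per kb was -0.33. For MRPL53 the overlapping gene CCDC142 was itself counted at a mean of 963 normalised counts, against 180.0 for MRPL53. How reads in shared exons were counted is not given in the sources used here, and its part in these low levels was not tested.

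The same property marked the border of the set. MRPS24, a small subunit protein, was the gene left out, with normalised counts of 31.4 and 16.5 in vehicle and 22.1 and 21.7 in octanoate, a mean of 22.9. It shares 23.2% of its exon bases with the read-through gene URGCP-MRPS24, which is listed at 0 in all 4 libraries. The genes just inside the minimum of 100 were MRPL38 (mean 126), MRPL53 (180.0) and MRPS17 (258), none of them called. In all, 25 of the 76 genes share more than 10% of their exon bases with another gene on either strand, and without those 5 genes were called higher and 2 lower.

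**Figure D4:**
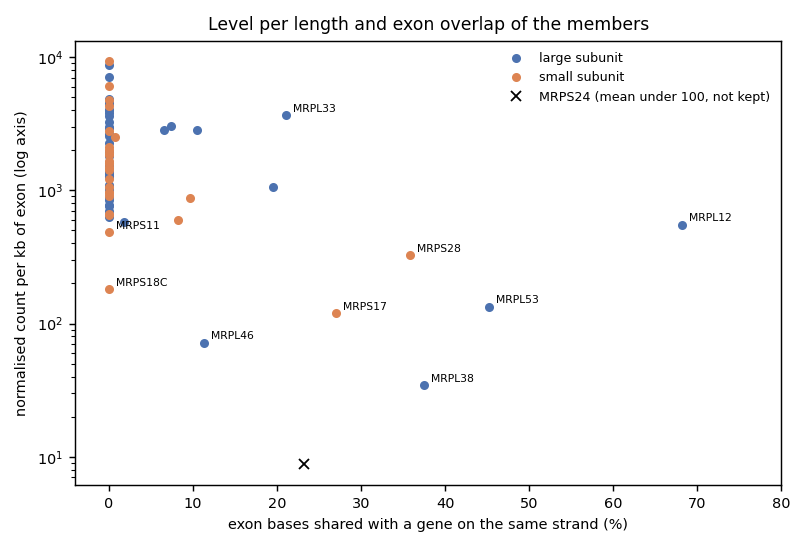
Mean normalised count per kb of exon (y axis, log scale) against the share of exon bases that overlap another gene on the same strand in GENCODE 29 (x axis, %), for the 76 genes and MRPS24. Points are genes, blue for the large and orange for the small subunit; MRPL38 is the lowest kept gene at 34.4 per kb, and MRPL33 stands high at 3643 per kb with 21.1% overlap.

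The rRNAs that these proteins assemble on fell. MT-RNR1, the rRNA of the small subunit, was counted at 60210 and 56349 in vehicle and 32365 and 41221 in octanoate, without overlap. Group means were 58280 ± 2730 and 36793 ± 6262 (SD, n = 2 each), and limma put the log2 difference at -0.67 with an SE of 0.08 (adjusted p 3.93e-07). MT-RNR2, the rRNA of the large subunit, was counted at 261698 and 284558 in vehicle and 190591 and 204369 in octanoate (limma: log2 difference -0.47, SE 0.07, adjusted p 2.64e-05). Both calls held in every alternative tried except the variance prior without an intensity trend (adjusted p 0.0836 and 0.0624). Whether library preparation selected polyadenylated RNA or removed rRNA is not given in the sources used here, and its part in the rRNA counts was not tested. MT-RNR2 shares 1050 bases at 95.1% identity with the nuclear gene MTRNR2L12.

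The mRNAs that the mitoribosome translates went in both directions. Of 13, 5 were called higher, 1 lower and 7 not called, with a median log2 difference of 0.07. The share called was 46.2%, against 29.9% of all genes tested and 38.1% of those averaging 1000 or more. MT-ND4, a subunit of respiratory complex I, rose from 337689 and 325870 to 511476 and 479867 (limma: log2 difference 0.58, SE 0.08, adjusted p 2.80e-06). MT-ND4L, which lies on the same transcript, rose from 33178 and 33201 to 46584 and 45978 (limma: log2 difference 0.48, SE 0.06, adjusted p 5.53e-07). MT-ND1, also of complex I and next to the rRNAs on the mitochondrial genome, fell from 48735 and 47660 to 40212 and 37632 (limma: log2 difference -0.31, SE 0.06, adjusted p 0.000301). The groups did not overlap for these 3 genes. MT-ND4 shares 1376 bases at 95.8% identity with the pseudogene MTND4P12, and MT-ND1 shares 352 bases at 99.1% identity with MTND1P23.

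Proteins that build the mitoribosome and modify its rRNA were split as well. Of 24 such genes 3 were called higher and 3 lower, with a median log2 difference of -0.01. The share called was below the 29.9% of all genes tested. TFB1M, which methylates the small subunit rRNA, rose from 4188 and 3932 to 4641 and 4675 (log2 difference 0.20, SE 0.06, limma adjusted p 0.0136). RPUSD3, a mitochondrial pseudouridine synthase, fell from 5756 and 5365 to 4811 and 4582 (log2 difference -0.24, SE 0.06, limma adjusted p 0.00328). WBSCR16, a factor for mitoribosome assembly, fell from 10017 and 8994 to 8596 and 7910 (log2 difference -0.20, SE 0.06, limma adjusted p 0.0160). The TFB1M call was lost without vehicle 2, octanoate 1 or octanoate 2 (limma adjusted p from 0.0521 to 0.142). The RPUSD3 call was lost without vehicle 1 (0.0672), and the WBSCR16 call without vehicle 1 or octanoate 2 (limma adjusted p 0.240 and 0.204).

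Among 13 mitochondrial translation factors, 1 was called lower (7.69%, against 29.9% called over all genes tested), and the median log2 difference was 0.02. That gene, C12orf65, encodes a release factor that rescues stalled mitoribosomes, and it fell from 3147 and 3212 to 2453 and 2391 (log2 difference -0.39, SE 0.06, limma adjusted p 2.79e-05). The 6 mitoribosomal proteins with other symbols (DAP3, PTCD3, CHCHD1, AURKAIP1, GADD45GIP1 and ICT1) had a median of -0.05. None of them was called by limma, and 2 had an unadjusted p under 0.05.

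Of 14 genes for transcription of the mitochondrial genome and care of its RNA, 2 were called higher and 2 lower. This share of 28.6% was close to the 29.9% of all genes tested. MTERF1, which binds just downstream of the rRNA genes, fell from 2752 and 2840 to 1889 and 2027 (log2 difference -0.51, SE 0.07, limma adjusted p 1.33e-06). POLRMT, the mitochondrial RNA polymerase, rose from 7059 and 6583 to 8457 and 7473 (log2 difference 0.22, SE 0.06, limma adjusted p 0.00997), a call lost without vehicle 2 or octanoate 1 (0.122 and 0.237). POLG2, the accessory subunit of the mitochondrial DNA polymerase, rose from 2152 and 2036 to 2511 and 2555 (log2 difference 0.28, SE 0.06, limma adjusted p 0.00205). For each of the 3 the groups did not overlap. POLRMT shares 3668 bases at 97.8% identity with its pseudogene POLRMTP1, so its count is uncertain.

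Of 8 factors known to drive nuclear genes for mitochondria, 2 rose and 6 were not called, a share called below the 29.9% of all genes tested. PPARGC1B, a coactivator, rose from 869 and 900.0 to 1207 and 1245 (log2 difference 0.47, SE 0.08, limma adjusted p 3.36e-05). The nuclear receptor ESRRA, which it coactivates, rose from 5020 and 4370 to 6265 and 5514 (log2 difference 0.33, SE 0.07, limma adjusted p 0.000847). The octanoate libraries of both genes lay above the vehicle libraries, and ESRRA shares 533 bases at 96.2% identity with its pseudogene ESRRAP1. Without an intensity trend 10 of the 14 related genes named here lost their calls, and MT-ND4, MT-ND4L, MTERF1 and PPARGC1B kept theirs. As a comparison, 1 of 79 cytosolic ribosomal protein genes (1.27%, against 29.9% of all genes tested) was called, with a median of 0.05. It was RPL39L, which was higher (limma adjusted p 0.0433).

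**Figure D5:**
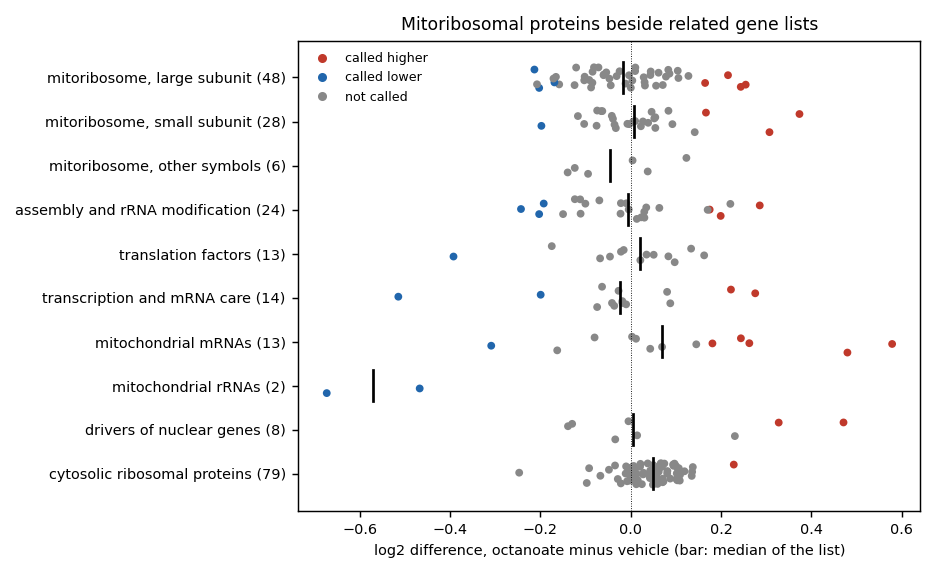
Log2 difference (octanoate minus vehicle, x axis) of each gene in 10 lists (y axis, number of genes in brackets), with a black bar at each list's median. Points are genes, red if called higher and blue if called lower; the mitoribosomal proteins centre near 0 (medians -0.02 and 0.01), and the 2 mitochondrial rRNAs lie at -0.67 and -0.47.

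Promoters of the mitoribosomal genes were searched for motifs of 3 factors that are known to act on such genes. The 250 bases before the start were taken from the RefSeq promoter table (GRCh38.p14), which held 67 of the 76 genes, and both strands were searched. The core of the ETS family motif, to which GABPA binds, CCGGAAG, was present in 22 of 67 (32.8%), in 31.7% for the large and 34.6% for the small subunit. It was present in 8.82% of all 27305 promoters and in 18.3% of those whose genes averaged 1000 or more. The YY1 core GCCATNTT was found in 5 (7.46%, against 3.91% of all and 4.63% of those averaging 1000 or more), and the NRF1 motif in 2 (2.99%, against 2.56% of all and 5.71% of those averaging 1000 or more). Of the 11 called genes 3 held the ETS core, 2 that rose (MRPS10 and MRPL33) and 1 that fell (MRPL27). The stretch directly before the start is shown for these 3 because the same letters stood before genes that moved in opposite directions; capitals mark the ETS core, and each run is 5′ to 3′ on the strand of the gene.
MRPS10 (chr6:42217862-42217921, minus strand): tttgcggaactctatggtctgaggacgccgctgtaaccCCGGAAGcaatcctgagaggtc
MRPL33 (chr2:27771659-27771718, plus strand): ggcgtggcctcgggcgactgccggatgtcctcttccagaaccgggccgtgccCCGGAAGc
MRPL27 (chr17:50373185-50373214, minus strand): cggaagtagaaacttttcgagaCCGGAAGt
The core begins 22 bases before the start for MRPS10 and 8 bases before it for MRPL33 and MRPL27. GENCODE 29 places all 30 bases shown for MRPL27 inside an exon of a longer transcript. Of the 56 genes not called, 19 (33.9%) held it. GABPA itself had a log2 difference of -0.14 and was not called (limma adjusted p 0.0794), NRF1 one of -0.005 (0.966) and YY1 one of -0.13 (0.106).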

How the data were processed

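RNA-seq libraries of A375 cells, 2 with vehicle and 2 with octanoate, were compared. The authors deposited a signal per gene and library, a count divided by 1 size factor per library. The submitters' processing notes name STAR 2.4, HTSeq 0.9.1 and DESeq2 and the build hg38, with no roles or order. The labels' protocols name the NEBNext Ultra RNA kit; whether counting used strand is not given in the sources used here, so reads of genes that overlap on opposite strands cannot be told apart. The authors' deposited comparison gives a log2 fold change, a test score and a p-value. Every positive value (100% in each library) was a whole multiple of the library's smallest within 1e-06 reads, so reads were recovered for edgeR and DESeq2. Vehicle and octanoate replicates differed by more than sampling noise (chi-square per degree of freedom 5.28 and 7.31) and were kept apart.

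limma 3.58.1 in R 4.3.3 was fitted to log2(value + 1) with an intensity trend, for 20250 genes with a mean of at least 10. Two-sided p were adjusted by Benjamini-Hochberg; calls are at an adjusted p under 0.05. Log2 differences understate changes of low genes. Alternatives were pseudocounts of 0.5 and 5, other filters, TMM (edgeR 4.0.16), equal totals, no trend, edgeR, DESeq2 1.42.0, a replicate block, leaving out each library, and corrections for GC content and length. Exon overlaps and transcripts came from GENCODE 29; shared sequence was searched with blastn 2.17.0 at 95% identity and a minimum of 100 bases. The fitting code was checked on simulated data. Genes named are the called ones, the highest and lowest of each subunit, the MRPS18 paralogs, those nearest to the minimum of 100, and the 3 with the smallest p of each related list. SLC5A3, CCDC142, ZNF514, GGA3, ABHD8, SYVN1, RPL39L, GABPA, NRF1, YY1 and genes named only in a list were added after their values were seen. Members and lists were chosen with earlier results of these data known. An exact permutation test of 2 against 2 libraries cannot give a two-sided p that passes, so none was used.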

Additional observations from a re-analysis of the deposited data

How the results depend on the processing

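The counts of called mitoribosomal genes (7 higher, 4 lower) changed under several alternatives, as did the share called over all genes tested (29.9%). With every expressed gene in the fit, 2 were called higher and 0 lower (limma; 5 lower at an unadjusted p under 0.05; 5.97% of all genes called), and without an intensity trend 0 and 0 (limma; 5 of 76 at an unadjusted p under 0.05; 8.02% of all genes called). Under the replicate block 10 were called lower, and 7 once trends on GC content and length were removed, each with 41.4% of all genes called. Over genes with at most 10% exon overlap, chosen after seeing the data, 2 were called lower. Leaving out 1 library gave 3 to 6 higher and 0 to 6 lower, with 21.2% to 23.5% of all genes called, the 0 without vehicle replicate 1 (limma; 2 at an unadjusted p under 0.05) and 1 without octanoate replicate 2. The replicate numbers are not said to mark a shared batch, and the deviations of same-numbered libraries correlated at 0.13 over genes. The large minus small median of -0.026 was -0.054 with GC content and length trends removed, -0.069 with at most 10% exon overlap, and between -0.039 and -0.0072 when 1 library was left out. The fit with GC content and length trends removed held only the 15183 of 20250 tested genes found in GENCODE 29. All 76 mitoribosomal genes were among them, but it is void as a check across every gene. On the same 15183 genes without that removal, limma called 7 mitoribosomal genes higher and 4 lower, with 35.8% of genes called. Among genes not called, the sign changed for MRPL3 (TMM 0.011, edgeR 0.012, GC and length 0.030, and -0.054 to 0.046 with 1 library left out) and MRPS18A (TMM 0.0076, edgeR 0.0050, and -0.096 to 0.081 with 1 library left out). It also changed when 1 library was left out for MRPS17 (-0.25 to 0.099), MRPS18B (-0.024 to 0.12), MRPS18C (-0.14 to 0.071) and MRPS24 (-0.50 to 0.39). Reads limit precision for MRPL38, MRPL53 and MRPS17, with SE of 0.16, 0.14 and 0.13. The cause of these changes was not tested.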
